A study of Mus musculus with 7 samples.

Results

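The semaphorins, plexins, neuropilins, Eph receptors and ephrins are cell surface and secreted proteins that guide cells and their processes by contact or over short distances. They were followed here in luminal cells of the mouse prostate. Genes were taken by name alone: every gene whose symbol in the platform annotation starts with Sema, Epha, Ephb, Efna or Efnb and a number or with Plxn, and the genes Nrp1 and Nrp2. This gave 53 genes of the 18193 measured, read by 124 probe sets. There were 20 semaphorins, 9 plexins, 2 neuropilins, 9 Eph A receptors, 4 Eph B receptors, 5 A ephrins and 3 B ephrins. The remaining gene, Plxna4os1, is an antisense RNA gene that the name rule takes in with the plexins, and it is given apart from them.

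Semaphorins are ligands, secreted in class 3 and held on the membrane in classes 4 to 7. Plexins are their receptors, and most class 3 semaphorins also need a neuropilin to bind. Neuropilins serve besides as co-receptors for vascular endothelial growth factors, so that Nrp1 and Nrp2 belong to blood and lymph vessel biology as well. Eph receptors are tyrosine kinases, and their ligands, the ephrins, are tethered to the neighbouring cell, A ephrins by a lipid anchor and B ephrins by a transmembrane segment. In epithelia these systems are known for holding cell populations apart and for shaping contact between cells.

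RNA was measured on Affymetrix mouse arrays from luminal cells sorted from mouse prostates as negative for CD31, CD45, Ter119 and Sca1 and positive for CD49f. Wild-type cells gave 3 arrays, lettered WT A, WT B and WT C, and T-ETV1 cells gave 4, lettered to D. The T-ETV1 allele places a human cDNA of the ETS transcription factor ETV1 under the mouse's own Tmprss2 promoter, which drives it only where that promoter is active. Its cells were also sorted as GFP positive, which WT cells were not, and the sources used here give no ages. Genotype and GFP gate therefore cannot be told apart. The comparison asks how expression in luminal cells differs with the allele.

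Array medians lay between 48.5 and 73.7 in intensity, and the arrays WT C and T-ETV1 C stood apart from the others of their groups. Luminal markers were high on every array: the summed intensity of 14 of them was 95458 to 98933 in WT and 93729 to 104794 in T-ETV1. Markers of other cells were present and uneven. The sum of 18 endothelial genes was 2335 to 8807 in WT and 830.0 to 3192 in T-ETV1, and that of 6 lymphatic endothelial genes was 4015 to 6741 in WT, 9229 in T-ETV1 C and 182 to 225 in the other 3 T-ETV1 arrays. Their part in the results that follow was not tested. In such sorted bulk samples, fewer cells of a type and less RNA per cell cannot be told apart.

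The 3 genes with the smallest p values, Nrp2, Plxnd1 and Sema3g, and Epha3, which had the largest difference toward T-ETV1, are shown by their promoters, because the allele under study encodes a factor that binds DNA at a GGAA core. The sequences come from a set of promoters taken from RefSeq (build GRCm38.p6), in which 46 of the 53 genes were found by symbol. Not found in that set were Efnb3, Plxna1, Plxna4, Plxna4os1, Sema3b, Sema3f and Sema6a. Each line holds the 250 bases before the transcription start, 5′ to 3′ on the gene's strand, and capitals mark GGAA or its reverse complement TTCC.
Nrp2 (chr1:62703067-62703316, plus strand): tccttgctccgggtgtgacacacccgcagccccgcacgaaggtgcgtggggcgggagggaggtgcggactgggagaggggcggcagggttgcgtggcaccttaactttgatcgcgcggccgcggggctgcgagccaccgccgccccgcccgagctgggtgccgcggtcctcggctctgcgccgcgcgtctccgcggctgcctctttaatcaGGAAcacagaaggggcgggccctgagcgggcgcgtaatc
Plxnd1 (chr6:115995006-115995255, minus strand): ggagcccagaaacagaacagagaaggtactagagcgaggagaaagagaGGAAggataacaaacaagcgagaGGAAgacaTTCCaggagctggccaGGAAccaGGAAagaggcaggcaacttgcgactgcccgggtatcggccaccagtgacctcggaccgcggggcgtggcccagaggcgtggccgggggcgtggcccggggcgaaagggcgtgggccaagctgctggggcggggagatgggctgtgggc
Sema3g (chr14:31217623-31217872, plus strand): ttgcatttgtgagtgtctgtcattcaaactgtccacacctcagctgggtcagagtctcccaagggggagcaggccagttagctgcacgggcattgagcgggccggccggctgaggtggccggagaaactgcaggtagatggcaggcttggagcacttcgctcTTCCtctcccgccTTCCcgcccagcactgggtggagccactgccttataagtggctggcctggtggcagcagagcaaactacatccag
Epha3 (chr16:63864176-63864425, minus strand): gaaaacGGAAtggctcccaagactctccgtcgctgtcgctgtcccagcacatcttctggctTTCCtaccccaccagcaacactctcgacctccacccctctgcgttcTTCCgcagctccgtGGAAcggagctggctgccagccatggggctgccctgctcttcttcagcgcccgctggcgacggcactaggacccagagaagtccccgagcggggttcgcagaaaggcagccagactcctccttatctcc
The core occurred 1 time in the window of Nrp2, 5 times in that of Plxnd1, 2 times in that of Sema3g and 4 times in that of Epha3, against a median of 3 over the 32851 promoter windows of the same length. It was present in 93.45% of all those windows and in 56 of the 60 windows of guidance genes (93.3%). The longer ETS sequence CCGGAAGT, or ACTTCCGG on the other strand, which contains the core, was in 2.88% of all windows and in 0 of the 60. These matches describe letters and not binding.

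None of the guidance genes differed past the threshold by genotype. The comparison used log2(intensity + 16). Each difference below is T-ETV1 minus WT on that scale, which understates changes at low intensity. Of the 53 genes 0 had a limma adjusted p (Benjamini-Hochberg over all genes) under 0.05, as was so for 0.00% of all genes, and the smallest adjusted p was 0.671. At an unadjusted limma p under 0.05 there were 3 of 53 genes, Nrp2, Plxnd1 and Sema3g, all with lower means in T-ETV1. Over all genes the share was 6.12%, made up of 4.12% lower and 2.00% higher. The arrays of the groups did not overlap for 1 gene, Plxnd1, against 6.32% of all genes (3.90% with the lower values in T-ETV1). Neither count is a larger share than in the background.

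The count of guidance genes with lower means depended on scaling, and so did the share over all genes. T-ETV1 had the lower mean in 33 of 53 genes, against 55.6% of all genes, and the median difference was -0.12 against -0.03 over all genes. After centring each array on its median, which moved the median of all genes to 0.11, 26 of 53 were lower, against 32.2%, and the median of the guidance genes was 0.01. After quantile normalization 28 were lower, against 46.0%, with medians of -0.04 for the guidance genes and 0.02 for all genes. Under each of these scalings the guidance genes had the lower median, a gap that was not tested. Without WT C 27 were lower (49.4% of all genes), without T-ETV1 C 36 (57.3%), and without both 26 (51.9%).

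Other settings gave other counts. At an unadjusted limma p under 0.05 there were 2 genes, Nrp2 and Plxnd1, with a pseudocount of 1 (6.27% of all genes), with one of 64 (5.72%) and, of 41 genes kept, with the lowest 30% of genes left out (6.23%). There were 4 when probe sets were averaged per gene (6.16%), 4 after quantile normalization (6.53%), 5 after median centring (6.57%), 5 when the variance prior followed the mean level (6.15%) and 6 with array weights (12.9%, with 34 lower against 56.0%). The groups did not overlap for 2 genes, Epha5 and Plxnd1, after quantile normalization (6.49%) and after median centring (6.76%).

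**Figure D1:**
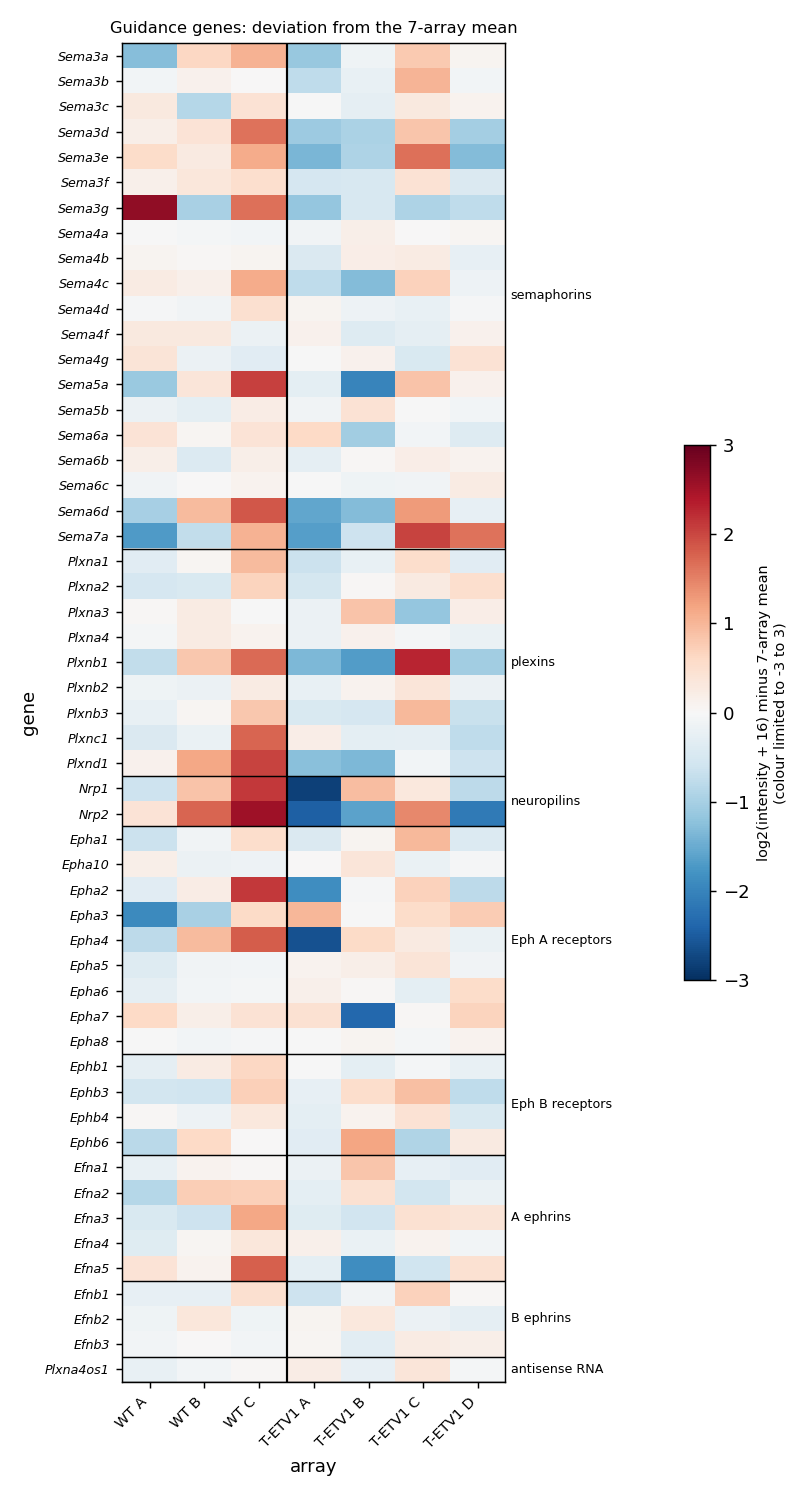
Deviation of each guidance gene (rows, by family) from its mean over the 7 arrays (columns), in log2(intensity + 16). WT C holds the highest value for 20 of the 53 genes, against 24.2% of all genes, and the lowest value lies in T-ETV1 A or B for 28, against 33.1%.

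The guidance genes varied more between arrays of a group than genes at large. Their median residual SD was 0.57, against 0.27 over all genes. For a rough sense of which probe sets carried signal, each was set against the median of all probe sets on its array. Of the 53 genes 19 lay above it on all 7 arrays, 22 on some and 12 on none. Over all genes 54.0% lay above it on all 7 arrays and 30.1% on none. Among the 19 that lay above it throughout the median residual SD was 0.44, against 0.22 for all such genes. It was 1.04 among the 22 above it on some arrays and 0.22 among the 12 above it on none. Values that cross the array median place a gene among the 22, so the grouping itself favours a larger SD there. No value over all genes was taken for either of these groups. Those 12 had intensities between 1.02 and 44.1, and their differences lay between -0.38 and 0.33.

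**Figure D2:**
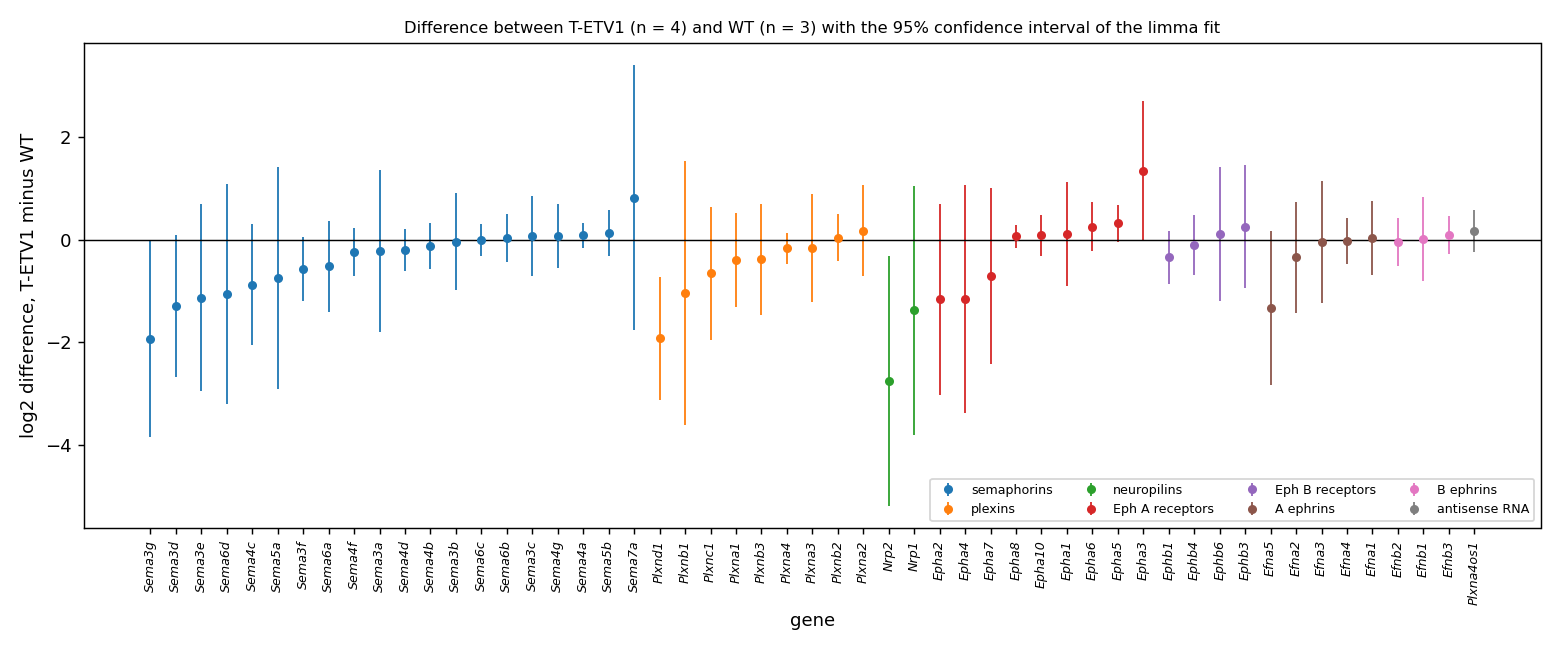
Log2 difference, T-ETV1 minus WT, of each guidance gene with the 95% confidence interval of the limma fit, by family. The intervals of Nrp2, Plxnd1 and Sema3g lie below 0, before adjustment for the number of genes, and all others include 0.

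Among the ligands, none of the 7 secreted class 3 semaphorins passed, and 6 had lower means in T-ETV1, against 55.6% of all genes, with a median difference of -0.57. After median centring 5 were lower, against 32.2% of all genes, and after quantile normalization 5, against 46.0%. Sema3g, a ligand that acts through neuropilin 2, read 268, 6.98 and 125 on the WT arrays A to C, and 4.23, 16.1, 7.87 and 10.7 on the T-ETV1 arrays A to D (intensities). WT A and C were high while WT B lay among the T-ETV1 arrays, so that the groups overlapped. WT averaged 6.60 ± 1.87 on the log2 scale (SD, n = 3) and T-ETV1 4.66 ± 0.28 (SD, n = 4). The difference was -1.94 ± 0.80 (SE), with a 95% confidence interval of -3.85 to -0.03 and a limma adjusted p of 0.812. It came to -1.17 without WT A, to -2.98 without WT B (limma adjusted p = 0.390) and to -0.75 with array weights. Its unadjusted limma p was under 0.05 in 4 of 18 alternative fits and was 0.103 with the replicate letter as a block.

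Sema3d, a secreted semaphorin, had intensities of 32.7, 41.1 and 117 in WT and of 4.22, 6.32, 60.6 and 5.38 in T-ETV1 A to D. T-ETV1 C alone of its group lay within the WT range, and both arrays C were the highest of their groups. The log2 difference was -1.29 ± 0.58 (SE; limma adjusted p = 0.822), and -0.85 without WT C. Sema3e, which binds plexin D1 without a neuropilin, had a similar shape: 76.7, 59.6 and 120 in WT, 8.44, 17.2 and 9.57 in T-ETV1 A, B and D, and 181 in T-ETV1 C. Its difference was -1.13 ± 0.76, and all 4 of its probe sets were lower. Sema3f, a ligand of neuropilin 2, lay at 99.3, 115 and 131 in WT, at 57.3, 58.1 and 61.1 in T-ETV1 A, B and D and at 125 in T-ETV1 C. These last 2 genes, and the others described from here that are not in the plot of named genes, were chosen after their values were seen.

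Sema3b likewise had T-ETV1 C apart, at 516, with 233, 270 and 246 in WT and 138, 206 and 229.7 in T-ETV1 A, B and D, and its difference was -0.04. The remaining class 3 genes did not have this shape. Sema3c, which had signal on every array, lay at 1927, 861 and 2135 in WT and between 1309 and 1921 in T-ETV1, a difference of 0.07 (95% confidence interval -0.72 to 0.86). Sema3a, the classic repellent ligand of neuropilin 1, ran from 3.79 in WT A to 83.3 in WT C and had a difference of -0.22.

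Several membrane-bound class 4 semaphorins were steady across arrays. Sema4a lay between 2604 and 2702 in WT and between 2564 and 3091 in T-ETV1, and its difference of 0.08 had a 95% confidence interval of -0.16 to 0.33. Sema4b (-0.12, interval -0.58 to 0.33), Sema4d, the ligand of plexin B1 (-0.20, interval -0.61 to 0.22), and Sema4g (0.07, interval -0.55 to 0.70) likewise had signal on every array. These intervals leave room for differences in either direction of up to the bounds given. Sema4c, a ligand of plexin B2, varied more: it lay at 1106, 1024 and 2009 in WT and at 542, 369, 1511 and 827 in T-ETV1 A to D, lower in T-ETV1 for each of the 3 shared letters. Its difference was -0.88 ± 0.50 (limma adjusted p = 0.865).

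Of the 7 semaphorins of classes 5 to 7, 4 were lower and 3 higher, between -1.06 and 0.82. Sema6d had its highest values in WT B (97.4), WT C (196) and T-ETV1 C (126) and lay between 3.96 and 33.4 on the other 4 arrays. Sema7a, a lipid-anchored semaphorin, was the semaphorin with the largest positive difference, 0.82 ± 1.08, but its signal came from WT C (124), T-ETV1 C (263) and T-ETV1 D (194), and the other 4 arrays lay between 4.76 and 28.2. Sema5a reached 691 in WT C and lay between 27.5 and 296 elsewhere. Sema4f, Sema5b and Sema6c stayed under the array median on every array.

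Among the receptors, 7 of 9 plexins had lower means in T-ETV1, against 55.6% of all genes, with a median difference of -0.38. Also 7 were lower after median centring (32.2% of all genes) and after quantile normalization (46.0%), and none passed. Plxnd1, the receptor of Sema3e and known for its role in blood vessel endothelium, had WT intensities of 45.2, 108 and 210 (A to C). The T-ETV1 intensities were 7.55, 5.98, 36.8 and 20.4 (A to D), so that every T-ETV1 array lay below every WT array. WT averaged 6.90 ± 0.94 on the log2 scale (SD, n = 3) and T-ETV1 4.98 ± 0.59 (SD, n = 4), a difference of -1.92 ± 0.50 (SE; 95% confidence interval -3.13 to -0.72). The limma p was 0.00719 unadjusted and 0.671 adjusted. The unadjusted limma p was under 0.05 in each of 18 alternative fits, and the adjusted p lay between 0.190 and 0.999. These fits reuse the same arrays and are not independent, and Plxnd1 was named for its values in the main fit. The fold is uncertain at these intensities, since the log2 difference ranged from -1.10 with a pseudocount of 64 to -2.78 with one of 1.

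Plxnb1, the receptor of Sema4d, had the next largest absolute difference of the plexins. It lay at 81.8, 267 and 512 in WT and at 47.2, 35.2, 778 and 62.7 in T-ETV1 A to D. T-ETV1 C held the highest value of all 7 arrays while the other 3 T-ETV1 arrays were below every WT array, and the difference was -1.04 ± 1.08 (SE; limma adjusted p = 0.925), -1.95 without T-ETV1 C and -0.48 without WT C. Plxnb2 differed by 0.04 (95% confidence interval -0.41 to 0.49), with intensities between 754 and 1151 on all arrays. Plxna1 lay between 259 and 815 and differed by -0.40, while Plxna2 and Plxna3 differed by 0.18 and -0.16. The other Plxna2 probe sets all had the opposite sign, with differences between -0.86 and -0.04. The one at -0.86 had 59.5, 57.4 and 78.5 in WT and 10.7, 21.7, 71.7 and 28.4 in T-ETV1 A to D. Plxnc1 differed by -0.66, with WT C at 109 and the other 6 arrays between 5.82 and 26.9. Plxna4 and Plxnb3 never reached the array median, and neither did Plxna4os1, at 2.44 to 12.3.

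Both neuropilins had lower means in T-ETV1. Nrp2, the co-receptor for lymphatic growth factors, read 135, 364 and 644 on the WT arrays A to C, against 4.82, 21.3, 292 and 10.02 on the T-ETV1 arrays A to D. T-ETV1 C lay within the WT range and the other 3 T-ETV1 arrays far below it. WT averaged 8.39 ± 1.07 on the log2 scale (SD, n = 3) and T-ETV1 5.64 ± 1.78 (SD, n = 4). The difference, -2.75 ± 1.02 (SE), was the largest in size among the guidance genes, with a 95% confidence interval of -5.19 to -0.31 and a limma adjusted p of 0.789. Without T-ETV1 C it was -3.63 (limma adjusted p = 0.127), and as the mean of 4 probe sets it was -1.41 (0.740). The unadjusted limma p was under 0.05 in 13 of 18 alternative fits, which reuse the same arrays and are not independent. A second Nrp2 probe set gave 92.0, 130 and 161 in WT and 28.6, 29.1, 42.5 and 32.7 in T-ETV1, with no overlap and with T-ETV1 C close to its group. Its difference was -1.52 ± 0.20, with a limma p of 0.000126 unadjusted and 0.339 adjusted over all 34945 probe sets with 1 gene.

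The lymphatic markers, like the first Nrp2 probe set, were high in T-ETV1 C and low in the other 3 T-ETV1 arrays. Flt4, the lymphatic growth factor receptor that pairs with Nrp2, lay at 250, 603 and 477 in WT, at 588 in T-ETV1 C and at 6.78, 11.6 and 5.68 in T-ETV1 A, B and D. Prox1, the transcription factor that defines lymphatic endothelium, lay at 565, 597 and 493 in WT, at 751 in T-ETV1 C and at 8.30, 42.9 and 5.89 in T-ETV1 A, B and D. All 6 lymphatic genes measured had lower means in T-ETV1, and 0 passed. Some markers of other cells had the same shape. Krt14, a basal marker, lay at 1191 in T-ETV1 C and at 35.2, 19.9 and 23.6 in T-ETV1 A, B and D. In the same order Sox10, a Schwann cell marker, had 207 against 4.12, 5.22 and 5.12. Cdh5, an endothelial marker, had 872 against 68.6, 17.6 and 1. Others did not, such as endothelial Plvap, at 6.43 in T-ETV1 C against 8.35, 10.8 and 6.77. The part of any of these cells in the Nrp2 values was not tested.

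Nrp1, the co-receptor for Sema3a and vascular endothelial growth factor, lay at 214, 623 and 1507 in WT and at 34.2, 652, 420 and 190 in T-ETV1 A to D. The groups overlapped widely, and only T-ETV1 A and D lay below all of WT. The difference was -1.38 ± 1.02 (SE; 95% confidence interval -3.81 to 1.06; limma adjusted p = 0.882), and -0.63 without T-ETV1 A. All 4 probe sets of each neuropilin had negative differences. They include an Nrp2 probe set that read only 1 to 2.98 and differed by -0.03. They also include an Nrp1 probe set that stayed under the array median on every array and differed by -0.25.

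The Eph A receptors were split, with 3 of 9 lower in T-ETV1, against 55.6% of all genes, and 6 higher. After median centring 3 were lower, against 32.2%, and after quantile normalization 3, against 46.0%. Of the 6 higher, all but Epha1 and Epha3 stayed under the array median on every array, with differences of 0.07 to 0.33. Epha3, a receptor for A ephrins including ephrin A5, had the largest positive difference of all 53 genes. It read 82.0, 172 and 531 on the WT arrays A to C, and 718, 348, 522 and 608 on the T-ETV1 arrays A to D. WT A and B lay below every T-ETV1 array, and WT C lay within their range. WT averaged 7.76 ± 1.25 on the log2 scale (SD, n = 3) and T-ETV1 9.10 ± 0.43 (SD, n = 4), a difference of 1.34 ± 0.57 (SE; 95% confidence interval -0.03 to 2.71; limma adjusted p = 0.820). All 4 Epha3 probe sets were higher in T-ETV1, and in one of them the groups did not overlap: 3.77, 8.92 and 25.2 in WT against 72.0, 42.4, 88.0 and 27.3 in T-ETV1 (difference 1.35 ± 0.38, limma adjusted p = 0.758). Without WT C the difference was 2.01 (adjusted p = 0.489), and without WT A it was 0.77.

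Epha2, an epithelial receptor for ephrin A1, had 83.9, 130 and 533 in WT and 18.7, 108, 186 and 57.0 in T-ETV1 A to D. WT C was the highest array, and T-ETV1 A and D lay below WT. The difference was -1.17 ± 0.78 (SE; limma adjusted p = 0.879), and -0.44 without WT C. Epha4 ran between 50.7 and 390 in WT and between 2.80 and 156 in T-ETV1, with T-ETV1 A far below the rest, and differed by -1.15 ± 0.93. Epha7 was even across 6 arrays, at 76.4 to 127, and stood at 1.75 in T-ETV1 B, and its difference was -0.71 ± 0.72. Epha1 lay between 145 and 478 with a difference of 0.12. Epha5, Epha6, Epha8 and Epha10 stayed under the array median on every array. Epha5 differed by 0.33 ± 0.15, higher in T-ETV1 for each of the 3 shared letters.

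The 4 Eph B receptors differed by -0.34 to 0.25, and 2 had lower means, or 1 after median centring (32.2% of all genes). Ephb1 had 4.70, 13.9 and 22.3 in WT and 4.34 to 9.02 in T-ETV1, all under the array median, and differed by -0.34 ± 0.22 (SE; limma adjusted p = 0.876), by -0.58 without WT A and by -0.13 without WT C. Ephb3 had 30.6, 28.7 and 95.6 in WT and 41.1, 82.6, 112 and 24.2 in T-ETV1, with overlap and a difference of 0.25 ± 0.50, which was 0.68 without WT C, 0.54 with the letter as a block and -0.013 without T-ETV1 C. Ephb4, the receptor of ephrin B2 in veins, lay between 322 and 618 and differed by -0.11 (95% confidence interval -0.70 to 0.48). Ephb6, which lacks kinase activity, ranged from 150 to 687 and differed by 0.11.

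Of the 5 A ephrins 4 had lower means in T-ETV1, against 55.6% of all genes. After median centring 2 were lower, against 32.2%, and after quantile normalization 2, against 46.0%. Efna5 had the largest absolute difference of the A ephrins. It lay at 240, 191 and 656 in WT and at 143, 37.4, 113 and 251 in T-ETV1 A to D, lower in T-ETV1 for each of the 3 shared letters but with T-ETV1 D inside the WT range. The difference was -1.33 ± 0.63 (SE; limma adjusted p = 0.833), and -0.82 without WT C. Its second probe set, at 3.15 to 13.7, had the opposite sign. Efna2 lay at 65.6, 232 and 229 in WT and between 85.6 and 189 in T-ETV1, a difference of -0.34 ± 0.45. It was -0.87 without WT A (limma adjusted p = 0.717), and -0.073 and -0.082 without WT B and WT C. Efna1, a ligand of Epha2, was between 1090 and 1488 on 6 arrays and at 2467 in T-ETV1 B, and differed by 0.04. Efna3 and Efna4 differed by -0.05 and -0.03.

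The probe sets that stand for the B ephrins differed by -0.04 to 0.09. Efnb2, the arterial ligand of Ephb4, had 940, 1316 and 941 in WT and 1091, 1295, 909 and 861 in T-ETV1 A to D, with overlap. Its difference was -0.04 ± 0.20 (SE; 95% confidence interval -0.50 to 0.43), a sign that turned under other scalings (0.10 after median centring and 0.01 after quantile normalization). Efnb1 lay between 1189 and 3008 and was highest of its group in both arrays C, with a difference of 0.01 (95% confidence interval -0.81 to 0.82). Another Efnb1 probe set, with signal on every array, had 735, 827 and 1120 in WT and 479, 421, 1148 and 441 in T-ETV1, a difference of -0.62 ± 0.37, and the remaining Efnb1 probe set differed by -0.19. Efnb3 stayed under the array median, at 19.6 to 36.7, and differed by 0.09 ± 0.15.

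**Figure D3:**
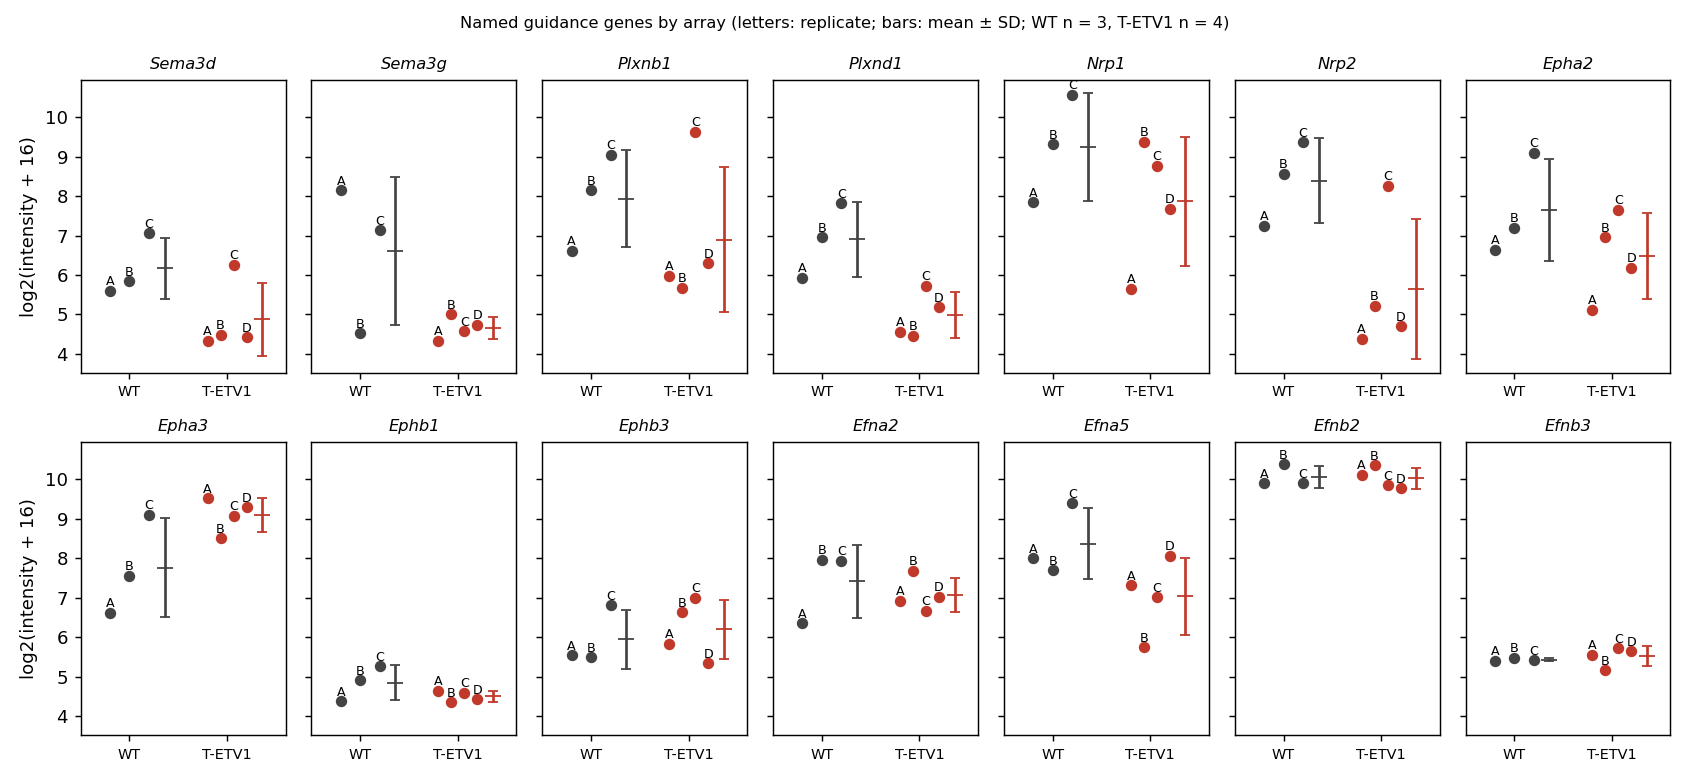
Log2(intensity + 16) of the 14 guidance genes named by rule, one point per array, with the mean ± SD of WT (n = 3) and T-ETV1 (n = 4) beside the points. The groups do not overlap for Plxnd1; in Sema3d, Plxnb1 and Nrp2 array T-ETV1 C stands above the other 3 T-ETV1 arrays.

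Arrays of WT and T-ETV1 share the letters A, B and C, and deviations of arrays with the same letter correlated. The labels do not say what arrays with the same letter share, so treating the letter as a block is an assumption. T-ETV1 D has no partner and was left out of that fit. With the letter as a block 8 of the 53 genes had an unadjusted limma p under 0.05, a larger share than the 7.22% of all genes, 33 were lower, against 54.5%, and 0 passed after adjustment (0.00% of all genes). They were Efna5, Epha2, Epha4, Epha5, Nrp2, Plxnd1, Sema3d and Sema4c, of which Epha5 alone had a positive difference. The groups did not overlap for Efna5, Epha5 and Plxnd1, against 9.06%, as without T-ETV1 D in the unpaired fit. The blocked difference was -1.99 ± 0.26 for Plxnd1 (adjusted p = 0.435), -2.44 ± 0.51 for Nrp2 (0.526) and 1.28 ± 0.63 for Epha3 (0.782). T-ETV1 was lower for every shared letter in 13 of the 53 genes, against 16.7% of all genes, and higher in 4. The share of all genes that was higher for every shared letter was not taken. For the letters A, B and C in turn, Nrp2 differed by -2.86, -3.35 and -1.10 and Plxnd1 by -1.38, -2.50 and -2.10, while Sema3g differed by -3.81, 0.48 and -2.56.

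Counts were also taken without the arrays that stood apart. Without WT C, 2 genes, Epha3 and Plxnd1, had an unadjusted limma p under 0.05, against 5.38% of all genes. Without T-ETV1 C there were 8, a larger share than the 9.84% of all genes, among them Nrp2, Plxnb1, Plxnd1, Sema3d, Sema3e and Sema3f. Without both arrays C there were 9, also a larger share than the 9.42% of all genes. These differences in share were not tested. The groups then did not overlap for 13 genes, against 26.0% of all genes. None of the 53 passed after adjustment in any of these, while 7 genes of the whole table did without WT C (0.0385%), 27 without T-ETV1 C (0.148%) and 68 without both (0.374%). Without overlap there were 4 guidance genes when WT C was left out (13.8%) and 10 when T-ETV1 C was (16%).

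The other arrays were also left out in turn. At an unadjusted limma p under 0.05 there were 4 guidance genes without WT A (6.63% of all genes), 2 without WT B (4.73%), and 2, 1 and 3 without T-ETV1 A (5.30%), B (5.33%) and D (4.45%). The groups did not overlap for 5 genes without WT A (14.6%), and for 3 without WT B (11.7%), T-ETV1 A (10.6%), T-ETV1 B (10.2%) or T-ETV1 D (9.06%). Lower means in T-ETV1 were found for 39 without WT A (58.7%), 34 without WT B (56.1%), and 30, 32 and 33 without T-ETV1 A (53.5%), B (56.5%) and D (54.5%).

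The range of the mean deviation over the arrays differed between families. The mean deviation of the guidance genes from their 7-array means, taken from A onward, was -0.19, 0.09 and 0.71 on the WT arrays and -0.48, -0.27, 0.30 and -0.16 on those of T-ETV1. For the 2 neuropilins it ran from -2.63 in T-ETV1 A to 2.33 in WT C, and for the 3 B ephrins only from -0.16 to 0.25. The endothelial marker list ran from -1.14 in T-ETV1 D to 2.07 in WT C, the fibroblast list from -1.69 in T-ETV1 A to 2.76 in WT C and the prostate basal list from -1.79 in T-ETV1 A to 1.93 in WT C. The macrophage and myeloid list ran from -1.45 in T-ETV1 D to 3.66 in WT C, with a summed intensity of 22689 in WT C, 10335 in T-ETV1 C and 538 to 1085 on the other 5 arrays. The leukocyte list reached 3.04 in WT C and 0.68 in T-ETV1 C and lay below 0 elsewhere. The luminal list stayed between -0.05 and 0.14. All 18 endothelial genes had lower means in T-ETV1 and 0 passed. Erg and Sox18 were under the array median on all arrays, and Pecam1, which encodes the CD31 of the sort, had 13.6, 42.9 and 205 in WT and 8.21, 8.84, 46.2 and 8.97 in T-ETV1. All 15 fibroblast genes (summed intensity 7643 to 40457 in WT, 2746 to 15268 in T-ETV1) and 12 of 15 basal genes (10184 to 28431 in WT, 4081 to 24619 in T-ETV1) were also lower, with 0 passing. Their part in the guidance gene values was not tested.

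**Figure D4:**
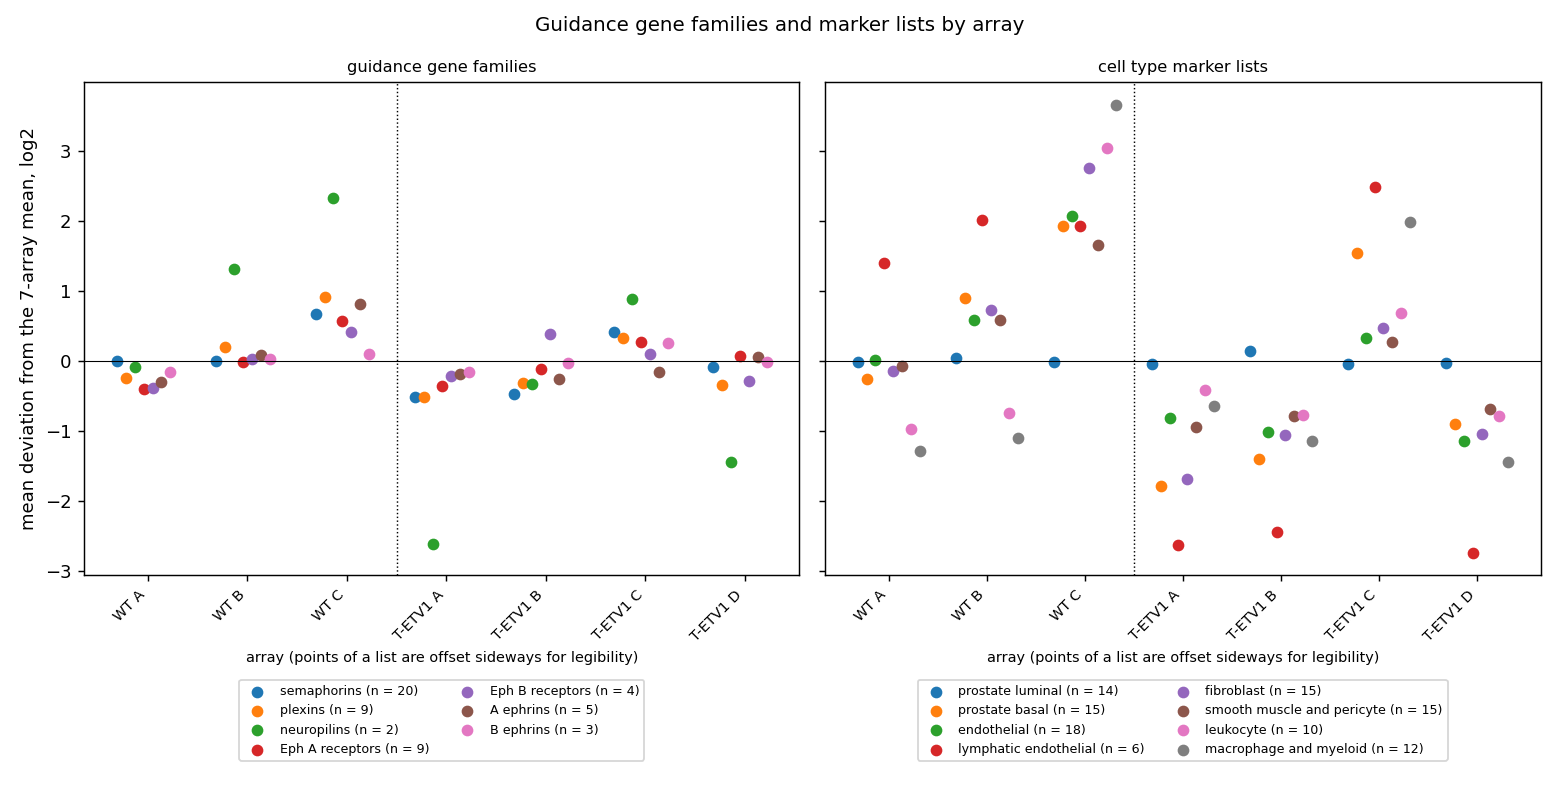
Mean deviation from the 7-array mean, in log2, of the guidance gene families (left) and of marker lists of cell types (right), one point per list and array. WT C is the highest array for every family but the B ephrins, though T-ETV1 B comes close to it for the Eph B receptors (0.38 against 0.41), and the luminal list stays near 0 on every array.

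Probe sets of a gene did not always give the same sign. Of the 53 genes 36 had several probe sets, and in 20 of them at least 1 probe set had the opposite sign to the one used. In 13 all probe sets were lower in T-ETV1: Efna2, Efna3, Efnb2, Epha4, Nrp1, Nrp2, Plxna3, Plxna4, Plxnb1, Sema3b, Sema3e, Sema3f and Sema4f. In 3 all were higher, Epha3, Sema5b and Sema7a. Of all 124 probe sets 82 were lower, against 55.5%, 9 had an unadjusted limma p under 0.05, against 6.06% of all probe sets, and in 5 the groups did not overlap, against 6.28%.

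**Figure D5:**
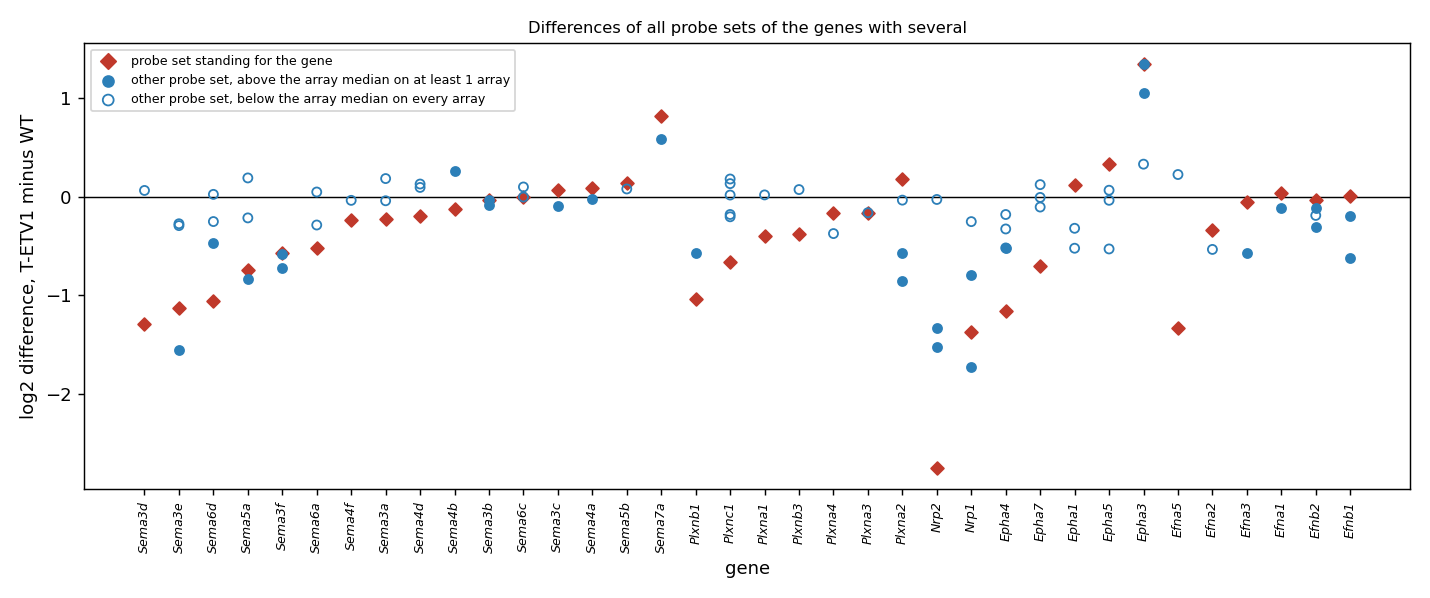
Log2 difference, T-ETV1 minus WT, of every probe set of the 36 guidance genes with several. Diamonds are the probe sets that stand for the gene, and open circles are other probe sets that lie under the array median on every array. All 4 probe sets of Nrp1 and of Nrp2 have negative differences, though each gene has an open circle among them.

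Genes that act with these families were read from lists chosen with earlier results of these data known, and none passed. The lists share genes with the marker lists, including Flt1, Flt4, Kdr, Robo4 and Tyrobp, so their counts are not independent of those above. Over all genes 55.6% had lower means in T-ETV1, or 32.2% after median centring, where their median was 0.11. At an unadjusted limma p under 0.05, 4.12% were lower and 2.00% higher. The groups did not overlap for 6.32%. Of 35 partners and effectors of semaphorins and plexins 31 had lower means in T-ETV1 (median -0.16), and 19 after median centring (median -0.03). At an unadjusted limma p under 0.05 there was 1, a smaller share than over all genes, the adhesion molecule gene Nrcam (-1.09 ± 0.29, adjusted p = 0.674), which stayed under the array median on every array. Its groups did not overlap, and neither did those of Trem2, a myeloid receptor (-1.19 ± 0.50). Crmp1, a collapsin response mediator that also stayed under the array median, differed by -0.62 ± 0.28. Of 8 growth factor partners of the neuropilins 6 were lower (median -0.87), and 1, Flt4 (-3.01 ± 1.23), had an unadjusted limma p under 0.05. Kdr, the main receptor of vascular endothelial growth factor, differed by -1.93 ± 0.82 and its ligand Vegfa by -0.28 ± 0.18.

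Of 33 partners of ephrins and Eph receptors 14 were lower after median centring (median 0.07), against 32.2% of all genes (median 0.11). Without centring 22 were lower (median -0.07), and 1 in each direction had an unadjusted limma p under 0.05. The lipid phosphatase gene Inppl1 was higher in every T-ETV1 array than in every WT array (0.28 ± 0.10, adjusted p = 0.765), and the adaptor gene Crkl differed by -0.35 ± 0.14. Of 27 other guidance genes, from the Slit, Robo, netrin, Unc5 and related families, 15 were lower after median centring (median -0.01). Without centring 22 were lower (median -0.15). At an unadjusted limma p under 0.05 there were 3, Robo1 and Robo4 with lower means and Robo3 with a higher mean in T-ETV1. Robo1 had log2 values of 10.86, 10.79 and 10.96 in WT and of 9.65, 9.13, 10.49 and 9.54 in T-ETV1 A to D, without overlap (-1.17 ± 0.31, limma adjusted p = 0.671). Robo3 stayed under the array median on every array and differed by 0.66 ± 0.18 (adjusted p = 0.682), also without overlap, as was Neo1, a netrin receptor (-0.30 ± 0.13), named after its values were seen. Robo4, a receptor of endothelium, differed by -1.54 ± 0.54 (adjusted p = 0.772).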

How the data were processed

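The deposited table holds linear intensities for 45037 probe sets on each of 7 arrays. How the authors summarised probes and scaled the arrays is not given in the sources used here. The labels' protocols name Trizol extraction and NuGEN V2 amplification. The design text speaks of 3 biological replicates, and the labels list 3 WT and 4 T-ETV1 arrays, all used. Precision is limited by the number of arrays, and no source used here says whether each array is a separate mouse, so that p-values measure the spread between these samples.

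Values were taken as log2(intensity + 16), with the deposited scaling kept. Of the probe sets 34945 had 1 gene symbol in the platform annotation, 932 had several and 9160 were not listed; only the first were used. Symbols were updated by Entrez ID for 34741 with a GRCm38.p6 gene table. The probe set with the highest mean over 7 arrays stood for a gene, which left 18193 genes. They were tested together with limma 3.58.1 in R 4.3.3 (lmFit, eBayes, two-sided, 6.67 degrees of freedom, Benjamini-Hochberg, threshold 0.05), a procedure tested on simulated data.

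Genes named with full values were those at an unadjusted p under 0.05 or without overlap, both neuropilins, and the 2 largest absolute differences of each other family (14 genes), plus up to 3 of each pathway list by p, of which 1 is not reported here. The members, pathway lists and marker lists were chosen with earlier results of these data known. Deviations from group means correlated at 0.281, 0.217 and 0.356 for the letters A, B and C. All were over 0.1, the limit set for taking the letters as pairs. WT A and T-ETV1 D, with different letters, correlated at 0.187, also over that limit. The labels do not say what arrays with the same letter share, so the pairing is an assumption. Alternatives tried were centring on array medians, quantile normalization, other pseudocounts (1 and 64), dropping the 30% of genes with the lowest means, the mean of probe sets, every probe set, eBayes with trend, array weights, the letter as a block, a threshold of 0.1, each array left out in turn and, chosen after seeing the data, both arrays C left out and the scalings by family and list.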

Additional observations from a re-analysis of the deposited data

Results flagged for a closer look

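In 4 of 33 sets of values examined, 1 of the 4 T-ETV1 arrays stood far from the other 3, by the gap relative to the range. Chance gives this in about 1 of 20 groups of independent values. The sets share the same arrays, and some genes were named for their values, so the 2 rates cannot be compared. Sema3d had a log2 value of 6.26 in T-ETV1 C, against 4.34 to 4.48 in the others. Plxnb1 had 9.63 in T-ETV1 C, against 5.68 to 6.30. The lymphatic endothelial score, the mean log2 deviation of 6 marker genes, was 2.49 in T-ETV1 C, against -2.74 to -2.45. The prostate luminal score was 0.14 in T-ETV1 B, against -0.05 to -0.03, a small gap in a narrow range.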

How the results depend on the processing

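No guidance gene passed after adjustment under any alternative run. Of 53 genes the count at an unadjusted p under 0.05, 3 in the report, was 5 after median centring (Epha3, Epha5, Nrp2, Plxnd1 and Sema3d), 5 with trend (Epha3, Nrp2, Plxnd1, Sema3d and Sema3g), 6 with array weights, 8 with the replicate block, 9 without both arrays C and 1 to 8 without each array in turn. Sema3g was not among them with the replicate block, nor with a pseudocount of 1 or 64 or the lowest 30% of genes left out, where the count was 2. The count without overlap, 1 in the report, was 2 after quantile normalization and 2 after median centring (Epha5 and Plxnd1 in both), 3 with the replicate block (Efna5, Epha5 and Plxnd1), 13 without both arrays C and 3 to 10 without each array; fewer arrays make separation easier. Every probe set on its own gave 9 at p under 0.05, 82 lower and 5 without overlap, of 124. Genes past the threshold over the whole table, 0 in the report (1113 at an unadjusted p under 0.05), were 68 without both arrays C and 0 to 27 without each array in turn (27 without T-ETV1 C and 7 without WT C). Without each array the median of the guidance genes lay between -0.21 and -0.01, and 27 to 39 were lower. Signs turned for Efnb2 (0.0085 after quantile normalization, 0.10 after median centring, 0.047 with the replicate block, and -0.15 to 0.12 without each array, above 0 without WT B, T-ETV1 C or T-ETV1 D), for Ephb3 (-0.013 to 0.68 without each array, below 0 without T-ETV1 C), for Efna2 without both arrays C (0.052), and in another probe set of Efna5 (0.22) and of Sema3d (0.062). Unless said here, the cause of a change was not tested.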
